A study of Mus musculus with 6 samples.

Results

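Nuclear receptors are transcription factors that bind DNA and, for many of them, a small lipid-soluble ligand. The genes described here are 31 members of this machinery other than the bile acid receptor FXR (gene Nr1h4), taken by symbol from a table of exon counts with 24940 genes: 24 receptor genes and 7 coregulator genes. The counts come from primary stellate cells of the liver, pericytes that store vitamin A, isolated from female C57BL/6JBomTac mice. After 2 days in culture they received obeticholic acid (OCA), a semisynthetic bile acid and FXR agonist, at 10 µM, or an equal volume of the vehicle DMSO, and 6 hours later they were lysed. Each group has 3 libraries of polyadenylated RNA, lettered A, B and C. No genotype other than the strain and no age of the mice is given, and the labels do not tell if replicate libraries stem from different mice or cultures, so the p-values rest on the spread between libraries that may be technical repeats.

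As background, receptors with a ligand (oxysterols for the LXRs, thyroid hormone, vitamin D, steroids) exchange corepressors such as NCoR for coactivators such as the p160 proteins when the ligand binds, while orphan receptors work without a known hormone and are set largely by how much of them a cell makes. Several of the ligand-activated receptors, FXR among them, sit on DNA as a pair with a retinoid X receptor (RXR). Stellate cells lose their quiescent state in culture, and several nuclear receptors are known to restrain or favour that change in the injured liver.

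Library totals ranged from 12260882 to 16336240 counts. All 16 listed markers of stellate cells were tested. They summed to between 2544 and 2736 per-million counts (CPM, scaled by library size) in DMSO and between 2331 and 2776 CPM in OCA. Of the 16, 4 were called higher and 2 lower, against 2.18% and 3.03% of all 12687 tested genes. At an unadjusted p under 0.05 by edgeR there were 11 of the 16, against 19% of all tested genes. All OCA libraries lay above all DMSO libraries in 8 of the 16 and below in 2, against 11.6% and 11.3% of all tested genes. The 4 called higher were Vipr1 (log2 fold change 0.76, edgeR adjusted p = 2.32e-06), Tcf21 (0.48, 0.000756), Hhip (0.49, 0.00567) and Lhx2 (0.23, 0.0470). The 2 called lower were Reln (-0.75, 0.0198) and Rgs5 (-0.43, 0.0326). Of 10 tested markers of activated stellate cells 0 were called higher and 1 lower, Col1a2, a chain of type I collagen (-0.40, 0.0173). At an unadjusted p under 0.05 by edgeR there were 5 of the 10. Of these 10 markers 7 lay below 0, with a median log2 fold change of -0.18. Their sum was between 3234 and 3736 CPM in DMSO and between 2894 and 3574 CPM in OCA. The calls of Lhx2, Reln, Rgs5 and Col1a2 each ended when OCA A, OCA C or DMSO A was dropped, those of Lhx2, Rgs5 and Col1a2 also without DMSO B, and that of Lhx2 also without DMSO C (adjusted p up to 0.210 for Lhx2, 0.132 for Reln, 0.183 for Rgs5 and 0.122 for Col1a2). Robust estimation ended those of Reln, Rgs5 and Col1a2, DESeq2 that of Reln, and upper-quartile scaling or library totals that of Lhx2. Albumin (Alb) stood at 2.07 ± 0.756 CPM in DMSO and 2.30 ± 0.620 CPM in OCA (mean ± SD, n = 3 each), and the hepatocyte gene Tat had 0 counts in all 6 libraries. The hepatocyte list summed to between 162 and 189 CPM, nearly all of it Ass1 (169.5 ± 13.95 CPM in DMSO, 182 ± 1.81 CPM in OCA). The macrophage, endothelial, lymphocyte and mesothelial or portal fibroblast lists each summed to at most 13.6 CPM in any library. The cholangiocyte list was the list of other cells whose groups separated, with 2.89 to 3.81 CPM in DMSO and 7.22 to 10.9 CPM in OCA. Most of that sum was Sox9 (log2 fold change 1.597, edgeR adjusted p = 0.00322), while Krt7 had 0 counts throughout. The part of these marker lists in the results below was not tested. In such bulk libraries fewer cells of a type and less RNA per cell cannot be told apart.

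The cells carried RNA of most of these genes, over a wide range of levels. Of the 31 genes, 26 had enough counts to be tested: 20 of the 24 receptors and 6 of the 7 coregulators. Levels are compared between genes as RPKM, the CPM divided by the length of the listed transcript in kilobases. In DMSO the highest was Nr1h2 (LXRβ) at 69.8 ± 3.63 RPKM, above 89.7% of the 12687 genes tested in the table. Below it stood Nr2f6 (EAR2) at 57.5 ± 1.79, Nr2f2 (COUP-TFII) at 50.4 ± 2.65, the corepressor Ncor1 at 36.8 ± 2.07, Thra (thyroid hormone receptor α) at 29.3 ± 2.72 and Esrra (ERRα) at 25.8 ± 0.670 RPKM (SD, n = 3). In this top group of 6, the libraries of each gene did not overlap those of the next.

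The next 9 genes formed a chain from Ncoa3 at 15.5 ± 0.978 RPKM down to Rora at 8.24 ± 0.933 RPKM in which every neighbour overlapped the next, so their order was not resolved. Between these ends lay Ncoa2 (13.5), Nr1h3 (12.2), Nrip1 (10.9), Esr1 (10.8), Nr2c2 (10.1), Nr2c1 (9.48) and Ncoa1 (9.04 RPKM). Nr2f1 followed at 6.08 ± 0.173 RPKM, apart from Rora above it and from Nr4a1 at 3.22 and Nr3c2 at 2.72 RPKM below it. Thrb, Nr1i3, Nr4a3, Nr4a2, Ppargc1b and Nr6a1 lay between 1.55 and 0.702 RPKM, again each overlapping the next. Vdr at 0.273 and Pgr at 0.191 RPKM were the lowest tested genes.

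**Figure D1:**
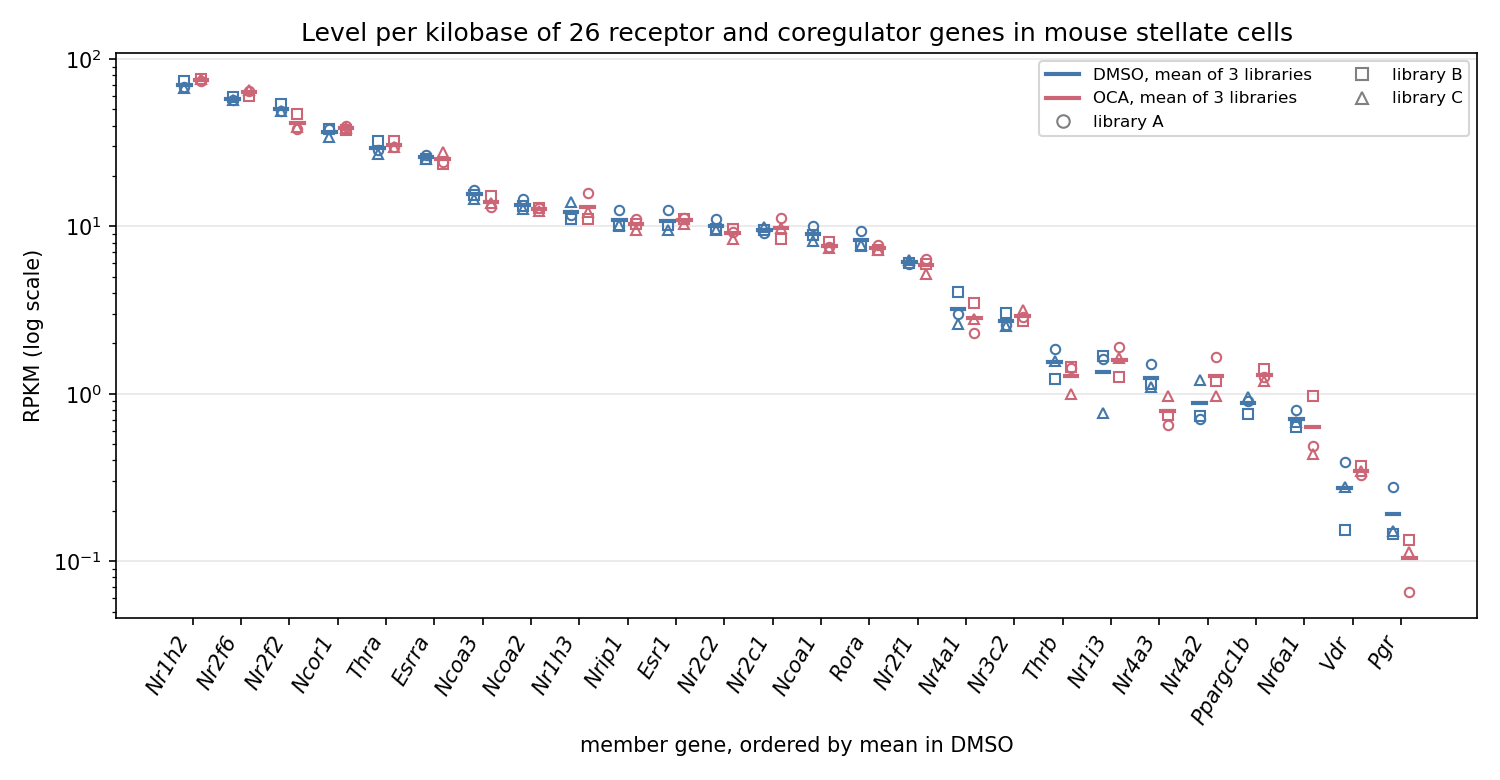
Level of the 26 tested genes in RPKM (vertical axis, log scale), ordered by the mean of the 3 DMSO libraries. Open symbols are libraries and short lines are group means; the levels fall from 69.8 RPKM for Nr1h2 to 0.191 RPKM for Pgr in DMSO.

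The remaining 5 genes were too low to test, among them regulators of hepatocytes. Nr1i2, which encodes the xenobiotic sensor PXR, and Nr5a2, which encodes the bile acid synthesis regulator LRH-1, had 0 counts in all 6 libraries. A count of 0 allows up to 3 counts, which over the 3 libraries of a group corresponds to 0.0683 CPM in DMSO and 0.0767 CPM in OCA (counting error only). The liver master regulator Hnf4a had 1.5 counts, in OCA B only. Rxrg, the RXR of muscle and brain and the heterodimer partner among the 31, had 2.5 counts in OCA B and 2 in each of DMSO A and DMSO C. Ppargc1a, the fasting-induced coactivator PGC-1α, is listed through a noncoding transcript and had 2 counts in OCA B and 5 in DMSO C. Of 18 genes listed as HNF4A or LRH-1 targets only Apoa2 was tested, at 7.90 ± 0.866 CPM in DMSO and 8.67 ± 1.35 CPM in OCA (edgeR quasi-likelihood test, adjusted p = 0.751).

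Treatment with OCA left nearly all of these genes uncalled. Of the 26 tested, 0 were called higher and 1, Nr2f2, was called lower (edgeR quasi-likelihood test, Benjamini-Hochberg adjusted p under 0.05 over all genes tested). The background was 2.18% of all tested genes called higher (276) and 3.03% called lower (384). At an unadjusted p under 0.05 there were 4 of the 26 (15.4%), against 2405 of 12687 genes (19%), and DESeq2 and limma-voom also called 0 higher and 1 lower. All 3 OCA libraries lay above all 3 DMSO libraries in 2 members, Nr2f6 and Ppargc1b, where 11.6% of all tested genes did so. They lay below in 4 members, Nr2f2, Ncoa1, Nr4a3 and Pgr (15.4%), where 11.3% of all tested genes did. These shares were near the background. Fold changes were above 0 in 12 members and below 0 in 14, with a median log2 fold change of -0.05 against 0.00076 over all genes tested.

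The intervals show what size of difference the counts could have hidden. For the 14 uncalled members with a mean of at least 20 CPM, the 95% intervals of the difference between OCA and DMSO reached at most from -24.9% to 30.1%. The outer bounds were -56.1% and 36.2% for the 5 uncalled members between 5 and 20 CPM, and -74.5% and 142% for the 6 below 5 CPM. An uncalled gene in any of these ranges is therefore not shown to be unchanged. The outer bounds at 20 CPM or more also take in a change as large as that of Nr2f2 (-17.9%). Of those 14 members, Ncoa1 (-24.9% to -4.17%) and Nr2f6 (0.0711% to 20.7%) had intervals without 0.

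**Figure D2:**
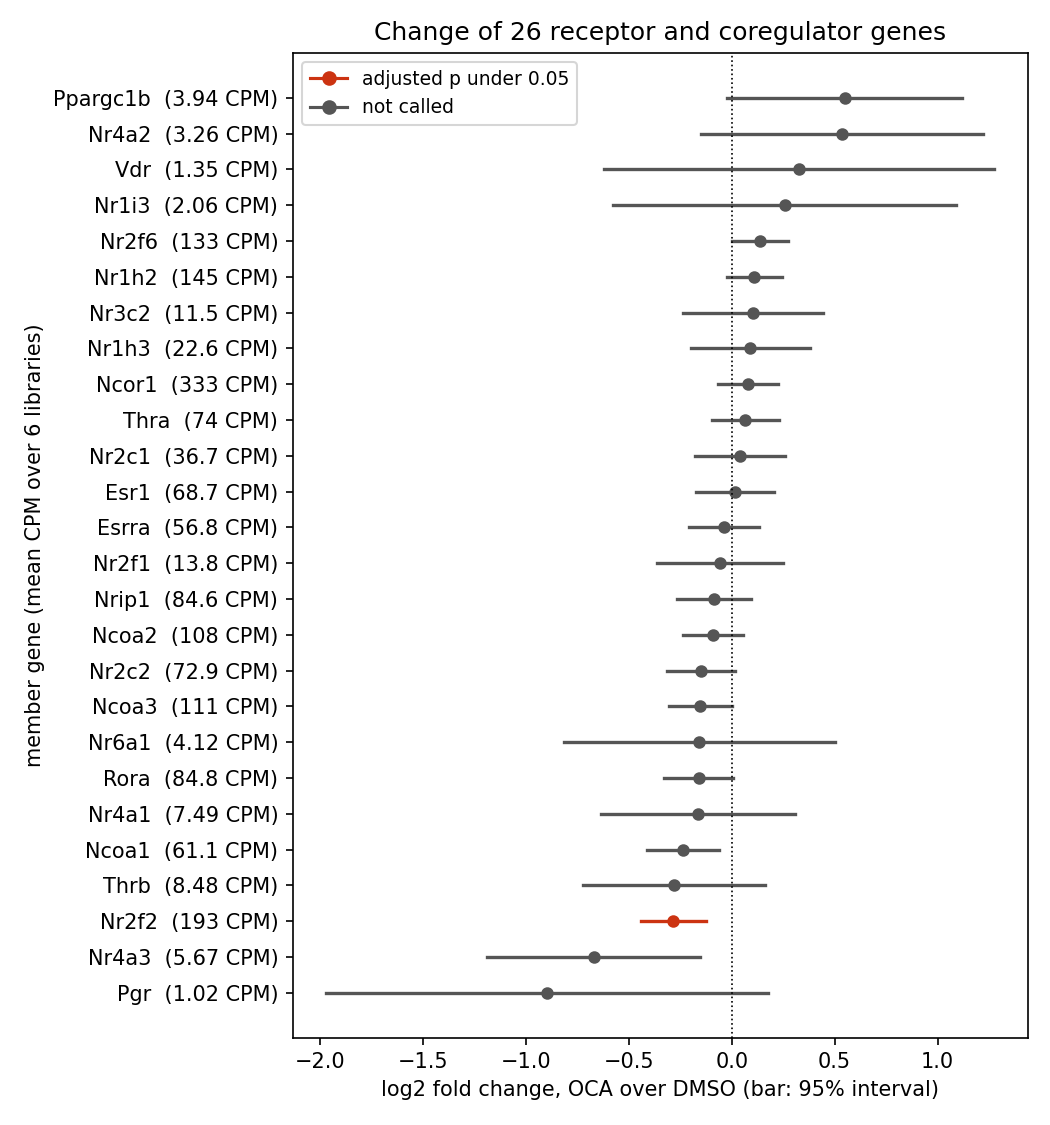
Log2 fold change of OCA over DMSO for the 26 tested genes (points) with 95% intervals (bars), ordered by size; the mean CPM over the 6 libraries stands beside each symbol. The interval of Nr2f2 is in red, the 1 gene called, and the widest intervals belong to genes under 5 CPM.

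Nr2f2 encodes COUP-TFII, an orphan receptor of mesenchymal and venous endothelial cells that mostly acts as a repressor. Its listed transcript (NM_009697) lies at chr7:70351950-70360593 on the minus strand of mm10. In libraries A, B and C it stood at 206, 225 and 206 CPM with DMSO and at 161, 196 and 165 CPM with OCA. Every OCA library was below every DMSO library, and OCA B was the closest to the DMSO range. Nr2f2 fell from 212 ± 11.1 to 174 ± 19.2 CPM (SD, n = 3), a change of -17.9% with a 95% interval from -26.4% to -8.39% (log2 fold change -0.28, SE 0.08, edgeR quasi-likelihood test, adjusted p = 0.0329).

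The call of Nr2f2 was close to the threshold. Leaving out 1 library ended it in 5 of 6 cases, with an adjusted p of 0.189 for OCA A, 0.164 for OCA C, 0.0654 for DMSO A, 0.105 for DMSO B and 0.0818 for DMSO C. The call held when OCA B was dropped (0.000884), and the log2 fold change stayed between -0.38 and -0.23 in these fits. With the trend of fold change on transcript length removed it was -0.24 (adjusted p = 0.07), and its listed transcript of 4211 bases falls in a length class whose median log2 fold change was -0.04. The opposite-strand RNA B130024G19Rik (2.20 ± 0.434 CPM in DMSO) overlaps 643 of the 8625 exonic bases of all Nr2f2 transcripts in GENCODE M21 but 0 of the listed one.

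The 2 closest relatives of Nr2f2 were not called. Nr2f1 (COUP-TFI) stood at 13.8, 13.9 and 14.5 CPM with DMSO and at 14.7, 13.8 and 12.1 CPM with OCA in libraries A, B and C, with overlapping groups. Its log2 fold change was -0.06 (95% interval of the difference from -22.2% to 19.0%). Nr2f6 (EAR2; chr8:71374119-71381952, minus strand), at 125, 132 and 125 CPM with DMSO, stood at 142, 133 and 144 CPM with OCA. All OCA libraries of Nr2f6 were higher, with OCA B just above DMSO B. The log2 fold change of 0.14 (SE 0.06) had an unadjusted p of 0.0484 and an adjusted p of 0.260 by the same test. The 2 genes of highest level in the COUP-TF group, Nr2f2 and Nr2f6, thus had fold changes of opposite sign. Of the listed Nr2f6 transcript, 41.2% of the bases are also exon of the opposite-strand gene Ocel1 (11.4 ± 1.93 CPM in DMSO), and no source says whether counting used the strand, which makes the Nr2f6 value uncertain.

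**Figure D3:**
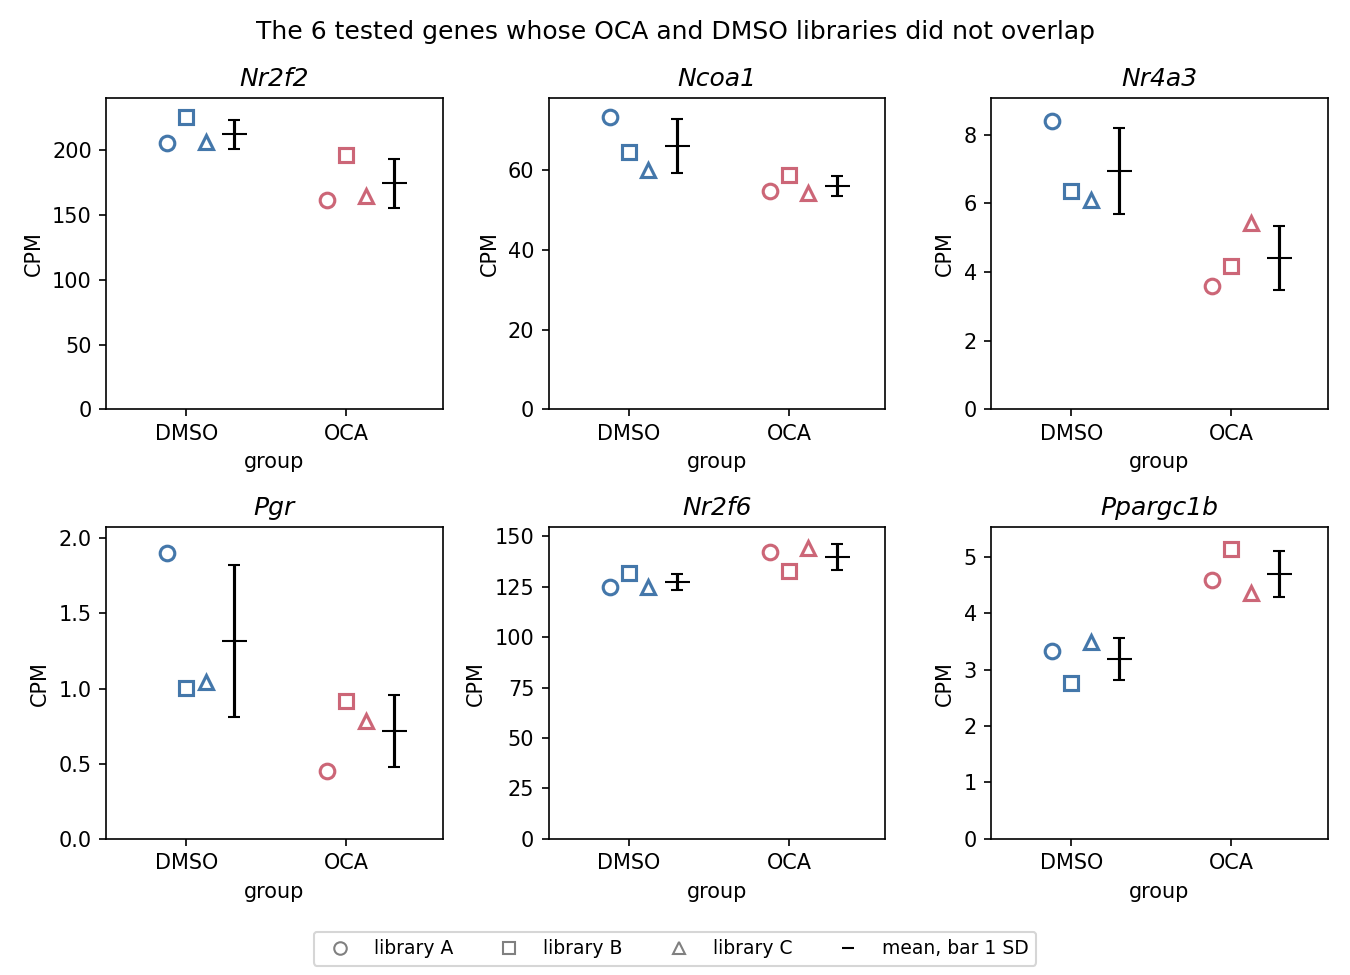
CPM by library (open symbols; circle A, square B, triangle C) with mean and 1 SD (black) for the 6 tested genes whose groups did not overlap; each vertical axis starts at 0. Nr2f2, Ncoa1, Nr4a3 and Pgr are lower in all OCA libraries and Nr2f6 and Ppargc1b higher, and of these only Nr2f2 was called.

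The testicular receptors TR2 and TR4 (Nr2c1 and Nr2c2), orphans that repress embryonic globin and retinoid-responsive genes, were moderate in level. Nr2c1 stood at 34.6, 36.1 and 37.7 CPM with DMSO and at 42.5, 31.9 and 37.1 CPM with OCA. OCA libraries lay on both sides of the DMSO range (log2 fold change 0.04, adjusted p = 0.867). Nr2c2, at 84.0, 73.2 and 72.7 CPM with DMSO, stood at 69.9, 73.6 and 64.1 CPM with OCA (log2 fold change -0.15, SE 0.08, adjusted p = 0.325). Of the listed Nr2c2 transcript 46.2% is also exon of the opposite-strand gene Mrps25, which itself stood at 94.5 ± 0.800 CPM, so this value is uncertain too. Nr6a1 (GCNF), a germ cell orphan, was low at 4.33 ± 0.529 CPM in DMSO and 3.897 ± 1.81 CPM in OCA, where OCA B alone was at 5.98 CPM (adjusted p = 0.823).

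Nr1h2 and Nr1h3 encode LXRβ and LXRα, the oxysterol receptors that raise cholesterol efflux and lipogenic genes. Nr1h2 stood at 136, 147 and 134 CPM with DMSO and at 147, 152 and 151 CPM with OCA. Only DMSO B reached the OCA range. The difference was 7.90% with a 95% interval from -1.68% to 18.4% (log2 fold change 0.11, adjusted p = 0.373). Nr1h3, at 20.9, 19.9 and 24.9 CPM with DMSO, stood at 28.4, 19.9 and 21.8 CPM with OCA, a spread led by OCA A (log2 fold change 0.09, adjusted p = 0.765). Per kilobase in DMSO, LXRβ RNA was the higher of the pair in every library.

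Of 19 listed LXR target genes, 13 were tested, with 0 called higher and 1 lower (2.18% and 3.03% of all tested genes). At an unadjusted p under 0.05 by edgeR there were 6 of the 13, against 19% of all tested genes. Fold changes were above 0 in 3 and below 0 in 10, where 6316 of all 12687 genes were below 0. The median log2 fold change was -0.12 (-0.06 with the length trend removed). The called gene was the cholesterol efflux pump Abca1. It stood at 73.1, 64.1 and 56.5 CPM with DMSO and at 50.6, 55.5 and 48.5 CPM with OCA, a small separation between DMSO C and OCA B (log2 fold change -0.32, edgeR adjusted p = 0.0464). Dropping OCA A, OCA C or either of DMSO A and DMSO B ended the call (adjusted p up to 0.292), as did limma-voom (0.0566) and removal of the length trend (log2 fold change -0.14, adjusted p = 0.325). With the length trend removed, 1 other listed target was called higher and 1 other lower. Abca1 is listed at 10208 bases and so lies in the longest length class.

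The xenobiotic sensor CAR (Nr1i3), which turns on drug-metabolizing enzymes in hepatocytes, was close to the lower limit. In libraries A, B and C it had 37.5, 28 and 16.5 counts with DMSO and 35.5, 23 and 29 counts with OCA, and the groups overlapped (log2 fold change 0.26, SE 0.40, adjusted p = 0.771). Of its listed transcript 68.6% is also exon of the opposite-strand gene Tomm40l (69.3 ± 4.18 CPM in DMSO), so how many of these counts belong to Nr1i3 was not tested. Of 18 listed PXR and CAR target genes 9 were tested and 0 were called in either direction by edgeR, DESeq2 or limma-voom, with 1 at an unadjusted p under 0.05 by edgeR. The highest of these targets were Aldh1a1, a retinal dehydrogenase, at 313 ± 29.5 CPM in DMSO and 342 ± 13.6 CPM in OCA (adjusted p = 0.375), and the P450 reductase Por at 249 ± 9.43 and 242 ± 7.89 CPM (adjusted p = 0.755).

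The vitamin D receptor gene Vdr, whose ligand is known to restrain stellate cell activation, was low. It had 28, 8 and 18.5 counts in DMSO A, B and C and 19, 21 and 19 counts in the OCA libraries. The OCA counts lay inside the DMSO spread, and the ratio of summed counts scaled for depth was 1.23 with an exact 95% interval from 0.833 to 1.81 (counting error only; edgeR adjusted p = 0.742). Of 10 listed vitamin D response genes 4 were tested, and 0 were called by edgeR, DESeq2 or limma-voom or had an unadjusted p under 0.05 by edgeR. The highest were the cell cycle inhibitor Cdkn1a, at 435 ± 45.1 CPM in DMSO and 468 ± 21.6 CPM in OCA (adjusted p = 0.497), and the Wnt coreceptor Lrp5, at 230 ± 11.6 and 209 ± 12.5 CPM (adjusted p = 0.286).

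Thyroid hormone receptor RNA was mostly that of Thra. It stood at 70.2, 79.9 and 67.0 CPM with DMSO and at 73.5, 79.7 and 73.5 CPM with OCA, with OCA inside the DMSO range (log2 fold change 0.07, 95% interval of the difference from -6.58% to 17.3%). Thrb, the receptor form that prevails in hepatocytes, stood at 11.1, 7.36 and 9.37 CPM with DMSO and at 8.48, 8.63 and 5.97 CPM with OCA, with overlapping groups (log2 fold change -0.28, SE 0.21, adjusted p = 0.505). Of the listed Thra transcript 10.7% is also exon of the opposite-strand clock receptor gene Nr1d1, a known sense and antisense pair. Nr1d1 itself stood at 94.98 ± 8.01 CPM in DMSO, and whether counting used the strand is not known, so the Thra value is uncertain too. Of 14 listed thyroid hormone response genes 7 were tested, with 0 called higher and 1 lower (2.18% and 3.03% of all tested genes). All 7 fold changes were below 0, or 5 of 7 with the length trend removed, where 6316 of all 12687 genes were below 0. The median log2 fold change was -0.06, and 6 of the 7 were not called. The called gene was Bcl3, an atypical IκB protein, at 14.9, 16.8 and 17.7 CPM with DMSO and 9.68, 9.28 and 10.8 CPM with OCA. Bcl3 fell by 0.73 on the log2 scale (adjusted p = 0.00732) and was called in all 18 alternative analyses.

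The 3 steroid receptor genes differed widely in level. Esr1 (estrogen receptor α) was the highest, at 79.5, 64.7 and 60.7 CPM with DMSO and 71.2, 70.5 and 65.9 CPM with OCA in these cells from female mice. The OCA libraries lay within the DMSO range (log2 fold change 0.02, 95% interval of the difference from -11.2% to 15.3%). Nr3c2, the mineralocorticoid receptor, which binds aldosterone and cortisol or corticosterone, stood at 10.6, 12.4 and 10.3 CPM with DMSO and at 11.7, 11.04 and 12.9 CPM with OCA, with overlapping groups (log2 fold change 0.11, adjusted p = 0.770).

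Pgr, the progesterone receptor, was at the edge of detection. It had 31.5, 12 and 16 counts in DMSO A, B and C and 6, 12 and 10 counts in the OCA libraries. DMSO A was the high library, and on the depth-scaled CPM scale the groups were only just apart. The ratio of summed counts scaled for depth was 0.524 (28 against 60 counts, exact 95% interval from 0.322 to 0.833, counting error only), while the test that includes the spread between libraries gave a log2 fold change of -0.90 with an SE of 0.51 and an adjusted p of 0.361 (edgeR).

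Of 14 listed estrogen and progesterone response genes, a list that holds Pgr itself, 11 were tested. Of these 1 was called higher and 1 lower, against 2.18% and 3.03% of all tested genes. At an unadjusted p under 0.05 by edgeR there were 4 of the 11, against 19% of all tested genes. Bcl2, the antiapoptotic protein gene, rose from 71.2 ± 3.47 to 112 ± 6.94 CPM (log2 fold change 0.65, adjusted p = 6.84e-06) and was called in all 18 alternatives. Wnt4, a secreted Wnt ligand, fell from 70.0 ± 3.30 to 55.5 ± 6.46 CPM (log2 fold change -0.33, adjusted p = 0.0275). Dropping OCA C or any 1 of the DMSO libraries ended the Wnt4 call (adjusted p up to 0.139).

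Gluco- and mineralocorticoid response genes are listed as genes that Nr3c2 or the glucocorticoid receptor Nr3c1 can act on. Whether any of them depended on these receptors here was not tested. Nr3c1 stood at 324 ± 13.3 CPM in DMSO and 337 ± 18.4 CPM in OCA (edgeR adjusted p = 0.686). Of 15 listed response genes 14 were tested, with 2 called higher and 0 lower, against 2.18% and 3.03% of all tested genes. With the length trend removed 2 were called higher and 1 lower. At an unadjusted p under 0.05 by edgeR there were 4 of the 14, against 19% of all tested genes. Fold changes were above 0 in 6 and below 0 in 8, and the median log2 fold change was -0.05. Sgk1, the serum- and glucocorticoid-induced kinase, rose from 120 ± 3.87 to 178 ± 8.44 CPM (log2 fold change 0.57, adjusted p = 1.02e-05). Errfi1, a feedback inhibitor of EGF receptors, rose from 157 ± 7.52 to 221 ± 17.1 CPM (log2 fold change 0.50, adjusted p = 0.000153). Both were called in all 18 alternatives, and Nr3c2 itself in 0 of them.

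The NR4A receptors Nr4a1 (NUR77), Nr4a2 (NURR1) and Nr4a3 (NOR1) are immediate-early orphans: cAMP and calcium signals induce them rapidly through CREB, which binds the cAMP response element, and their activity follows how much of each is made. The stretches before their starts are shown because the 3 genes share this feature of sequence, and its part in their levels was not tested. Each begins 250 bases before the start of the listed transcript and is printed 5′ to 3′ on the gene's strand (RefSeq, GRCm38.p6), with every match to TGACG, the core of the cAMP response element, in capitals; on the opposite strand it reads CGTCA.
Nr4a1: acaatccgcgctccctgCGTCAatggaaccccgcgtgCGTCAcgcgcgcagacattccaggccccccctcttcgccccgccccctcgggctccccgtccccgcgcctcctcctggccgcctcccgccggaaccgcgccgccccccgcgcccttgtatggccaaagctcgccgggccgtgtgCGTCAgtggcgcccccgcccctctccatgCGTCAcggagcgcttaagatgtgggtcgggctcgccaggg
Nr4a2: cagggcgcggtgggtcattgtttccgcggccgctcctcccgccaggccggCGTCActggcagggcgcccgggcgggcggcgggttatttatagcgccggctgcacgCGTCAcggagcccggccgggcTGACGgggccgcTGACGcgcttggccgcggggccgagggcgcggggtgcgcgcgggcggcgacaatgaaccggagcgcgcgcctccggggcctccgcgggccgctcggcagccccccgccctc
Nr4a3: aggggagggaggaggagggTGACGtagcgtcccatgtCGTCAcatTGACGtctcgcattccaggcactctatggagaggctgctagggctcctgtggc

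The Nr4a1 stretch is chr15:101266596-101266845 (plus strand), that of Nr4a2 is chr2:57124004-57124253 (minus strand) and that of Nr4a3 is chr4:48045055-48045152 (plus strand), which ends where GENCODE M21 places an exon of another transcript. The 250 bases hold 4 matches in each gene: 233, 213, 69 and 40 bases before the start in Nr4a1, 200, 144, 123 and 111 in Nr4a2, and 231, 213 and 205 in Nr4a3, whose other match lies in bases not printed. The core was found on either strand in 17.8% of 32851 RefSeq promoter windows of this length, and 4 or more matches in 45 of them (0.137%). Among the 27 members with an entry, the 3 NR4A genes were those with 4 or more. The full element TGACGTCA, of which TGACG is a part, was found in 1.55% of the windows and in 0 of the 37 entries of members. A match is a description of letters and not a binding site.

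**Figure D4:**
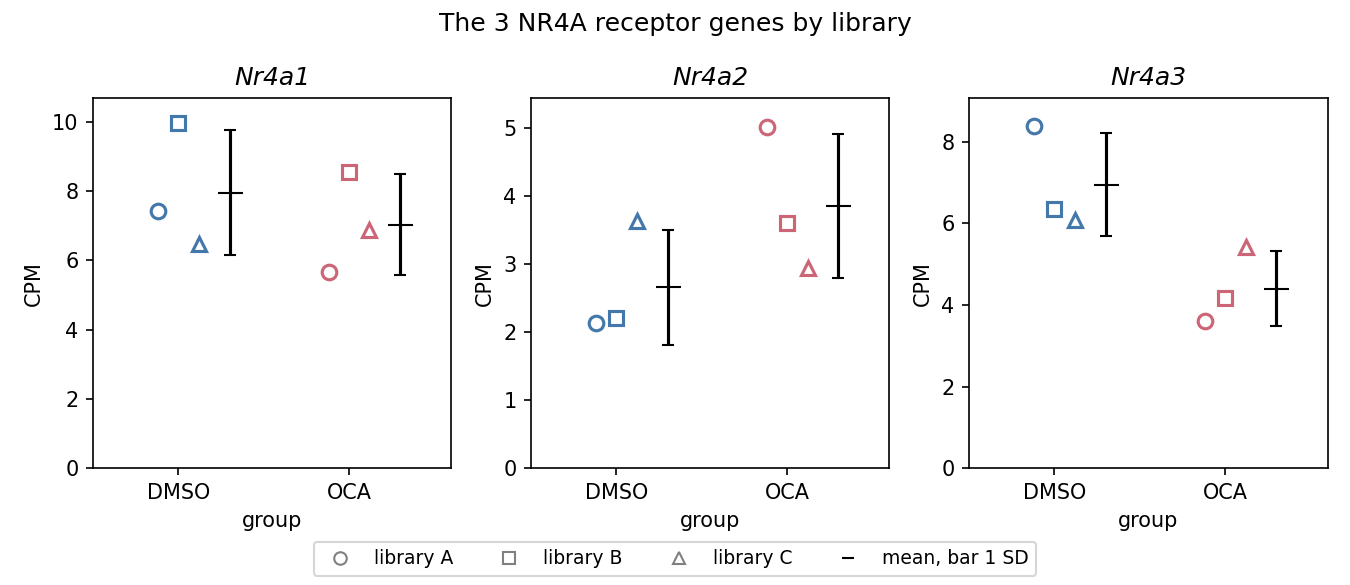
CPM by library (open symbols; circle A, square B, triangle C) with mean and 1 SD (black) for the 3 NR4A genes; each vertical axis starts at 0. OCA libraries are lower for Nr4a3, mostly higher for Nr4a2 and mixed with DMSO for Nr4a1, and none of the 3 was called.

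None of the 3 NR4A genes was called. The 95% intervals of the difference of Nr4a1 (-35.6% to 23.9%) and Nr4a2 (-9.95% to 133%) included 0, so the signs of these genes were not resolved. Nr4a1 stood at 7.42, 9.95 and 6.47 CPM with DMSO and at 5.67, 8.55 and 6.87 CPM with OCA, with library B highest in both groups (log2 fold change -0.16, adjusted p = 0.741). Nr4a2 stood at 2.14, 2.22 and 3.64 CPM with DMSO and at 5.03, 3.60 and 2.94 CPM with OCA, where DMSO C overlapped the OCA range (log2 fold change 0.53, SE 0.33, adjusted p = 0.399). Nr4a3 stood at 8.39, 6.36 and 6.08 CPM with DMSO and at 3.60, 4.18 and 5.42 CPM with OCA.

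All 3 OCA libraries of Nr4a3 were below all DMSO libraries, from 6.94 ± 1.26 to 4.40 ± 0.927 CPM on average. The log2 fold change was -0.67 with an SE of 0.25, and the unadjusted p of 0.0139 gave an adjusted p of 0.135, so Nr4a3 was not called (edgeR). The 95% interval of the difference ran from -56.1% to -9.999%. Whether Nr4a2 and Nr4a3 differed from each other in their response was not tested.

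Among other immediate-early genes of cAMP and calcium signals there were calls in both directions. Of 17 listed, 16 were tested, with 2 called higher and 2 lower, against 2.18% and 3.03% of all tested genes. At an unadjusted p under 0.05 by edgeR there were 8 of the 16, against 19% of all tested genes. Ptgs2, the inducible prostaglandin synthase, fell from 51.9 ± 3.28 to 35.4 ± 6.16 CPM (log2 fold change -0.55, adjusted p = 0.0043) and was called in all 18 alternatives. Pde4b, a cAMP phosphodiesterase, fell from 106 ± 7.91 to 84.0 ± 10.6 CPM (adjusted p = 0.0287), but not past the threshold when OCA A, OCA C or either of DMSO A and DMSO B was dropped (up to 0.169). Ier2 rose from 47.3 ± 5.31 to 60.9 ± 2.75 CPM (adjusted p = 0.0216), but not when OCA A or DMSO B was dropped (up to 0.0962). The antiproliferative gene Btg2 rose from 83.8 ± 1.68 to 100.3 ± 2.71 CPM (adjusted p = 0.0268), but only OCA B could be left out without ending the call (up to 0.0961).

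Esrra encodes ERRα, an orphan that with PGC-1 coactivators drives mitochondrial genes. It stood at 59.3, 56.6 and 56.7 CPM with DMSO and at 54.0, 52.7 and 61.7 CPM with OCA, on both sides of the DMSO range (log2 fold change -0.04, 95% interval of the difference from -13.4% to 9.65%). Its coactivator Ppargc1b (PGC-1β) stood at 3.32, 2.76 and 3.48 CPM with DMSO and at 4.58, 5.14 and 4.36 CPM with OCA. All OCA libraries were higher, 4.69 ± 0.402 against 3.19 ± 0.378 CPM on average, but at this level the log2 fold change of 0.55 had an SE of 0.27 and an adjusted p of 0.283.

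Of 24 listed ERR and PGC-1 target genes, a list that holds Esrra itself, all 24 were tested. Of these 0 were called higher and 1 lower, against 2.18% and 3.03% of all tested genes. Their fold changes were above 0 in 19 and below 0 in 5, where 6371 of all 12687 tested genes were above 0. The median log2 fold change was 0.06 against 0.00076 over all genes tested, and 23 of the 24 were not called. The list's median listed length was 2312 bases, and with the length trend removed 17 were above 0 with a median of 0.07. The called gene was Pdk4, a kinase that shuts off pyruvate dehydrogenase, which fell from 24.8 ± 1.38 to 17.6 ± 1.29 CPM (log2 fold change -0.48, adjusted p = 0.0219). That call ended when OCA A, OCA C, DMSO B or DMSO C was dropped (adjusted p up to 0.0906).

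Rora (RORα), which activates core clock genes in turn with the REV-ERB repressors, stood at 101, 83.2 and 84.0 CPM with DMSO and at 84.2, 78.1 and 78.0 CPM with OCA. DMSO A was the high library, and OCA A overlapped the other two DMSO libraries (log2 fold change -0.16, SE 0.08, adjusted p = 0.286). The fold change of Rora turned positive (0.03) with the length trend removed. Its listed transcript of 10857 bases is the longest among the tested members. In GENCODE M21 the transcript matched to it has 2591 bases, and the RPKM and length class of Rora rest on the deposited length. Of 12 listed ROR and REV-ERB targets, all tested, 1 was called higher and 0 lower, against 2.18% and 3.03% of all tested genes. At an unadjusted p under 0.05 by edgeR there were 2 of the 12, against 19% of all tested genes. The clock gene Per2 rose from 17.03 ± 3.39 to 27.3 ± 2.57 CPM (log2 fold change 0.67, adjusted p = 0.00617) and was called in all 18 alternatives, while the REV-ERBα gene Nr1d1 stood at 94.98 ± 8.01 and 96.2 ± 9.45 CPM (adjusted p = 0.926).

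The 5 coregulators with ample counts had log2 fold changes between -0.24 and 0.08. By edgeR 0 of the 6 tested were called and 1, Ncoa1, had an unadjusted p under 0.05, and DESeq2 and limma-voom also called 0. Ncor1, the corepressor that holds unliganded receptors silent through histone deacetylase, stood at 334, 334 and 303 CPM with DMSO and at 352, 332 and 342 CPM with OCA. Its groups overlapped (log2 fold change 0.08, 95% interval of the difference from -4.37% to 16.7%). Nrip1 (RIP140), a ligand-dependent corepressor, stood at 100.2, 80.2 and 80.7 CPM with DMSO and at 87.7, 82.5 and 76.2 CPM with OCA, again with DMSO A as the high library (log2 fold change -0.09, adjusted p = 0.629).

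The p160 coactivators are the histone acetyltransferase-recruiting partners of liganded receptors. Ncoa1 (SRC-1; chr12:4247362-4477182, minus strand) stood at 73.4, 64.7 and 60.1 CPM with DMSO and at 54.9, 59.0 and 54.4 CPM with OCA. All OCA libraries of Ncoa1 were lower, 56.1 ± 2.50 against 66.1 ± 6.80 CPM on average, with OCA B just below DMSO C. The log2 fold change was -0.24 (SE 0.08) and the unadjusted p of 0.0108 gave an adjusted p of 0.115, so Ncoa1 was not called (edgeR).

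Ncoa2 (SRC-2) stood at 120.3, 109 and 104 CPM with DMSO and at 106, 106 and 101 CPM with OCA. Ncoa3 (SRC-3) stood at 124, 116 and 109 CPM with DMSO and at 97.2, 114 and 103 CPM with OCA. In both genes the groups overlapped, and the log2 fold changes were -0.09 (adjusted p = 0.522) and -0.15 (adjusted p = 0.270). Of 40 other coregulators tested, 0 were called higher and 3 lower, against 2.18% and 3.03% of all tested genes. At an unadjusted p under 0.05 by edgeR there were 14 of the 40, against 19% of all tested genes. The 3 called lower were the acetyltransferase scaffold Trrap (log2 fold change -0.38, adjusted p = 0.0282), the PGC-1-related coactivator Pprc1 (-0.33, 0.0326) and the Mediator kinase-module subunit Med13 (-0.30, 0.0432). Each of these 3 calls ended when OCA A, OCA C or DMSO A was dropped, as did that of Med13 with DMSO B and that of Pprc1 with DMSO C dropped (adjusted p up to 0.201 for Trrap, 0.186 for Pprc1 and 0.27 for Med13). With the length trend removed Trrap and Med13 were not called, and with robust estimation Trrap was not. Among the 40, removal of the length trend left 1 called lower, Pprc1, and added 1 called higher.

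Transcript length moved with these fold changes. The tested members had a median listed length of 4276.5 bases against 2933 for all tested genes, and 11 of the 26 were in the longest eighth (5782 bases or more), where the median log2 fold change of all genes was -0.14 and 12.7% were called lower. Those 11 were Nr2c2, Nr6a1, Thrb, Esr1, Pgr, Rora, Ncor1, Ncoa1, Ncoa2, Ncoa3 and Nrip1. Ncoa3 and Rora lay within 0.03 of that class median, Ncoa1 0.10 below it and Ncor1 0.22 above it on the log2 scale. In this class DMSO A was the highest DMSO library for 10 of the 11 members, and OCA B the highest OCA library for 7.

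Removing the length trend moved several signs, ended the call of Nr2f2 and added no call among the members. The fold changes above 0 went from 12 to 15 of the 26 and their median from -0.05 to 0.06. Ncoa1 then had a log2 fold change of -0.11 (adjusted p = 0.481) and Ncor1 of 0.24 (adjusted p = 0.0946). Over the whole table the same step turned 276 higher and 384 lower calls into 378 and 227.

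**Figure D5:**
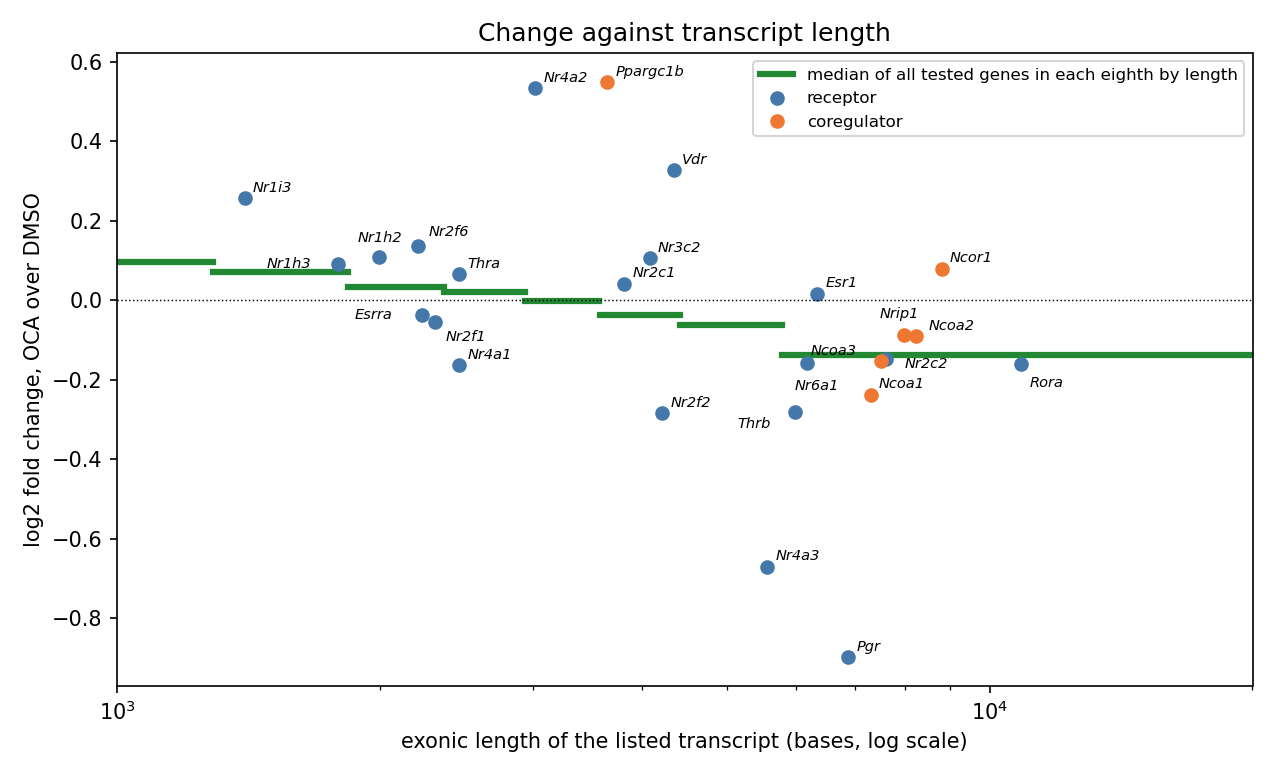
Log2 fold change of OCA over DMSO (vertical axis) against exonic length of the listed transcript (log scale) for the 26 tested members; green lines are the medians of all tested genes in each eighth by length, the outermost drawn only to the edge of the axis. The medians go from 0.10 in the shortest to -0.14 in the longest eighth, and Ncoa3, Nr2c2, Nr6a1 and Rora lie on the last line.

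Among the other nuclear receptor genes of the table, 12 of 24 were tested, so that 32 of 48 listed receptor genes in all had enough counts. Of the 12, 2 were called higher and 1 lower, against 2.18% and 3.03% of all tested genes. With the length trend removed 3 were called higher and 2 lower. At an unadjusted p under 0.05 by edgeR there were 7 of the 12, against 19% of all tested genes. All OCA libraries lay above all DMSO libraries in 4 of the 12 and below in 3, against 11.6% and 11.3% of all tested genes. Rara (retinoic acid receptor α) rose from 47.9 ± 3.64 to 68.9 ± 6.81 CPM (log2 fold change 0.52, adjusted p = 0.00106) and Nr1h4 (FXR itself) fell from 84.0 ± 2.39 to 65.8 ± 2.62 CPM (log2 fold change -0.35, adjusted p = 0.00535), both called in all 18 alternatives. Rxra, the partner of FXR and LXR, rose from 367 ± 15.6 to 433 ± 8.88 CPM (log2 fold change 0.24, adjusted p = 0.0487), and only DMSO B could be left out without ending that call (up to 0.184). Whether the members as a group differed from these receptors in their response was not tested.

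A search of the RefSeq promoter windows of the members, 250 bases before each start on both strands, found the FXR-type inverted repeat AGGTCANTGACCT in 0 of 37 entries and in 2 of the 32851 windows (0.00609%). The receptor core AGGTCA, of which this repeat is made, was found in 4 member entries, of Nr5a2, Nr6a1, Rxrg and Thrb, and in 14% of all windows. The direct repeat AGGTCANAGGTCA was in 0 member entries and in 0.0335% of all windows. Both repeats, searched by exact letters, are so rare in all windows that 0 among 37 entries could be foreseen. These 0 counts therefore do not tell whether FXR or another receptor acts on the members. Ncoa2, Ncoa3, Thra and Ppargc1b had no entry. For 22 of the 27 members with entries, 1 of them ends at the start of the listed transcript. The entries of Nr2c2, Nr2f2, Nr3c2, Ppargc1a and Rora lie at other starts. The 250 bases before their listed starts were thus not searched, apart from a part of those of Nr3c2. Its entry is for a start 178 bases from the listed one.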

How the data were processed

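Polyadenylated RNA of 6 libraries (3 OCA, 3 DMSO) was sequenced from NEBNext Ultra libraries, per the labels' protocols. Per the submitters' processing notes, STAR and HOMER were used with the mouse build mm10. The sources used here give no versions, strand setting or rule for shared reads. The table that the authors deposited gives unadjusted exon counts per gene with a listed RefSeq transcript, its mm10 position and its exonic length, per the file headers. These deposited values come in steps of 0.5, whose origin no source gives, so they were handled like estimated counts and rounded to whole numbers (ties to even) for the tests.

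Genes were filtered with filterByExpr (12687 of 24940 kept), scaled by TMM and tested, two-sided, with the quasi-likelihood test of edgeR 4.0.16 in R 4.3.3, with no replicate block. P-values were adjusted by Benjamini-Hochberg over all genes tested and called under 0.05. Each standard error is the log2 fold change divided by the square root of F. CPM and RPKM use unrounded counts and TMM-scaled library sizes. Alternatives were DESeq2 1.42.0, limma-voom (limma 3.58.1), other scalings and filters, robust estimation, unrounded counts, offsets that remove the trend on length, a replicate block and leaving out libraries.

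The members, gene lists and alternatives were chosen with earlier results of these data known. All 31 members are accounted for, and those called or with a mean of at least 5 CPM have the value of every library. From each other list the called genes are named (at most 6, smallest p first) or, where there are none, up to 2 with the highest mean CPM; marker lists of other cells without a call are given as sums. Genes named beyond this rule, Nr3c1, Nr1d1, the cell markers that were not called and the overlapping genes, were named after their values were seen. Promoter windows come from RefSeq (GRCm38.p6, the same assembly as mm10), with entries for 27 of 31 members. Exon overlaps come from GENCODE M21. There the matched transcripts of Nr3c2 and Nr2f1 have 5675 and 3207 bases, against deposited lengths of 4076 and 2316, which RPKM uses.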

Additional observations from a re-analysis of the deposited data

How the results depend on the processing

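Over the 18 alternatives, 0 members were called higher in any. The count called lower stayed at 1, always Nr2f2, under DESeq2, limma-voom, the 3 other scalings, both other filters, robust estimation, unrounded counts and the replicate block (0 higher, 1 lower), and without OCA B and DMSO A together. It was 0 with the length trend removed and ranged from 0 to 1 when 1 library was left out. Of the values of single members under these alternatives, 445 kept their direction and side of the threshold, 6 lost the call of Nr2f2 and 16 changed sign, all of genes not called. The changes of sign came with log2 fold changes that ranged, leaving out 1 library, from -0.0743 to 0.196 for Nr1h3, -0.0422 to 0.438 for Nr1i3, -0.0657 to 0.141 for Nr2c1, -0.12 to 0.0162 for Nr2f1, -0.327 to 0.0196 for Nr4a1, -0.61 to 0.046 for Nr6a1, -0.0638 to 0.144 for Esr1, -0.113 to 0.00686 for Esrra and -0.141 to 0.0285 for Nrip1. With the length trend removed Rora was at 0.0331, Ncoa2 at 0.0584 and Nrip1 at 0.0583. Without OCA B and DMSO A together Esrra was at 0.0287 and Nrip1 at 0.0253. The cause of these shifts was not tested, apart from the length offsets, which act on length by construction. Over all genes the calls ranged from 161 to 378 higher and from 104 to 758 lower. With the replicate block the table gave 306 higher and 508 lower, and Nr2f2 had an adjusted p of 0.00803 (edgeR). Over all tested genes the deviations of same-letter libraries had correlations of 0.000511 for A, -0.0433 for B and 0.0535 for C. Libraries of unlike letters had correlations from -0.0803 to 0.0795. Such values over all genes cannot exclude a pairing that acts on some genes. The labels do not say if the letters pair libraries, so they were not used as pairs. Depth limits the 6 tested members under 5 CPM.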
